A study of Mus musculus with 39 samples.

Results

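The genes described here are 9 genes of the glucocorticoid response, read on 39 microarrays of mouse subcutaneous fat: Nr3c1, Hsd11b1, Fkbp5, Tsc22d3, Sgk1, Zbtb16, Mt1, Mt2 and Angptl4. They were chosen by name, with no measured value in the rule, and the array carries 15 probes for them among 29411 gene names. All animals were C57BL/6J mice that were divided at weaning, at an age of 3 to 4 weeks, into 5 diet groups of 30. LFC mice received a low-fat diet with 10% of calories from fat (10 arrays), and HFC mice received a high-fat diet with added sucrose and 60% of calories from fat (11 arrays). HF5, HF20 and HF75 mice received the HFC diet with 5, 20 or 75 µg of KAL-1, an ethano-botanical formulation in water (6 arrays each). LFC and HFC were measured at Day 6, Day 10, Day 14 and Week 0, all 5 groups every 3 weeks from Week 3 to Week 18, and HFC alone also at Day 1. The study counted its weeks from Day 14, so Day 14 and Week 0 stand for the same length of feeding. There was 1 array for each diet at each time point, although the labels speak of 3 biological replicates and of 5 animals of a group killed at a time. They do not say whether the RNA of an array came from 1 mouse or from a pool, so every p value below measures the spread between single arrays. Each level is the log2 intensity of a probe minus the log2 75th percentile of its array, so 0 is the 75th percentile and 1 unit is a doubling, and a gene with several probes is given by its brightest one.

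Glucocorticoids are steroid hormones of the adrenal gland that enter cells, bind the receptor encoded by Nr3c1 and send it to the nucleus, where it switches genes on or off. Fat cells also make the hormone locally, because Hsd11b1 converts an inert precursor back to the active form, and the hormone is known there for promoting fat cell differentiation, for shifting lipid storage and for damping inflammation. The remaining genes are textbook targets: Fkbp5 encodes a chaperone partner that lowers the receptor's affinity for its ligand, Tsc22d3 encodes the anti-inflammatory protein GILZ, Sgk1 encodes a kinase that acts on ion transport, and Zbtb16 encodes a transcription factor. Mt1 and Mt2 encode metallothioneins, small proteins that bind zinc and copper and that also answer to metals and inflammatory signals, and Angptl4 encodes a secreted inhibitor of lipoprotein lipase that fatty acids also induce.

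Motifs for the receptor and for metal-responsive control were looked for in the reference sequence upstream of these genes. RefSeq promoters on build GRCm38.p6 were given for 6 of the 9 genes, 13 promoters in all, and the 250 bases before each start were searched on both strands for the full receptor site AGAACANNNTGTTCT, for its shorter part TGTTCT and for the metal response element core TGCNCNC. The Sgk1 promoter with the full site and the promoters of both metallothioneins are shown, because Sgk1 and Mt1 had the largest differences between HFC and LFC below, with the full site (Sgk1) or the metal cores (Mt1, Mt2) in capitals and each read 5′ to 3′ up to the base before the start. Sgk1 (plus strand, chr10:21993640-21993889) holds the full receptor site, whose first base lies 189 bases before the start. Mt1 (plus strand, chr8:94178839-94179088) and Mt2 (plus strand, chr8:94172368-94172617) hold metal response element cores.
Sgk1: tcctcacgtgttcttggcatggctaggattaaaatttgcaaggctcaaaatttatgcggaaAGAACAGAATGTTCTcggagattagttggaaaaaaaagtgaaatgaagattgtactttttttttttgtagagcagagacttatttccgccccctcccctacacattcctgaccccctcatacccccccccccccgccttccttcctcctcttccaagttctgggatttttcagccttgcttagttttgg
Mt1: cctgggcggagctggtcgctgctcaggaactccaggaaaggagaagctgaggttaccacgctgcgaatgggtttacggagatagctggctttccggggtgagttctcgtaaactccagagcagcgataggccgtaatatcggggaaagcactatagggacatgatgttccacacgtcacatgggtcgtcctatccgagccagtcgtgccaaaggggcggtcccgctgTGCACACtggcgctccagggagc
Mt2: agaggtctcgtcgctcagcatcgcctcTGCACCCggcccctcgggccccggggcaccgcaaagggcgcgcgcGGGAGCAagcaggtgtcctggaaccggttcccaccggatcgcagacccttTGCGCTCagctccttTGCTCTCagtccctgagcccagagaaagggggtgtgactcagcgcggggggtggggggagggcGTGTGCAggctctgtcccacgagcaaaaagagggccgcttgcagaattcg
The full site was found in 1 of 6 Sgk1 promoters, and over 32851 mouse promoters of the same length it was found in 3 (0.00913%). TGTTCT occurred 3 times in that Sgk1 promoter, with 2 of the matches lying inside the full site, and once in 2 other Sgk1 promoters and in 1 of 3 Tsc22d3 promoters. Of all promoters 16.1% held it at least once and 0.189% at least 3 times. The metal core occurred 5 times before Mt2 (3 forward and 2 reverse) and once before Mt1, against at least 1 match in 44.4% and at least 5 in 0.344% of all promoters. It also occurred once before Hsd11b1, before Fkbp5, in 1 of 3 Tsc22d3 promoters and in 2 of 6 Sgk1 promoters. Bases farther upstream or after the annotated start were not searched, so a count depends on where that start lies and does not give all sites of a gene. A match is a description of letters and says nothing of binding in these mice.

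Before the values are read, some features of the arrays need stating. The 75th percentile ran from 108 to 1285 scanner units and between 49.3 and 87.8% of spots were well above background, while the probe used for each of the 9 genes was well above background on all 39 arrays. Fat was read on every array, as Adipoq, the fat cell hormone adiponectin, was well above background on 39 arrays with levels of 1.12 to 6.74. Skeletal muscle genes varied most among the marker lists, with a mean level over 9 genes of -3.39 to 4.63 in LFC, -4.39 to 6.22 in HFC, -3.65 to 6.18 in HF5, -2.62 to 2.52 in HF20 and -2.97 to 7.59 in HF75, and each muscle gene was well above background on at least 28 arrays. On 6 arrays the immediate early genes, which cells switch on within minutes of a disturbance, were far lower than elsewhere: HFC Day 1, LFC Day 6, HFC Day 6, HFC Day 10, HF75 Week 3 and LFC Week 12. Their mean over 8 such genes was -0.60 to 0.37 there and 4.38 to 5.91 on the other 33 arrays, with Fos at -3.53 to -1.79 against 2.88 to 5.89, though Nr4a1, another of the 8, overlapped at 1.24 to 7.11 against 5.79 to 7.43. The same 6 arrays had muscle means of 1.34 to 7.59. These 6 arrays were picked from their values, so no mean or test sets them against the others. Their ranges are given as a description, and many of the values and counts that they enter are also given without them. In the deposited table of ratios, the columns named HF5 and HF20 of Week 12 matched the other array (r = 0.999 against 0.664), so those 2 arrays may be exchanged. Exchanging them turned the sign of none of the dose differences given below for Mt1, Mt2 and Angptl4. It did turn Fkbp5 and Sgk1 at HF5 and Zbtb16 at HF20 from lower to higher than HFC. With the exchange 4 of the 9 genes were higher than HFC at HF5 and 3 at HF20, against 2 at each of these doses without it.

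**Figure D1:**
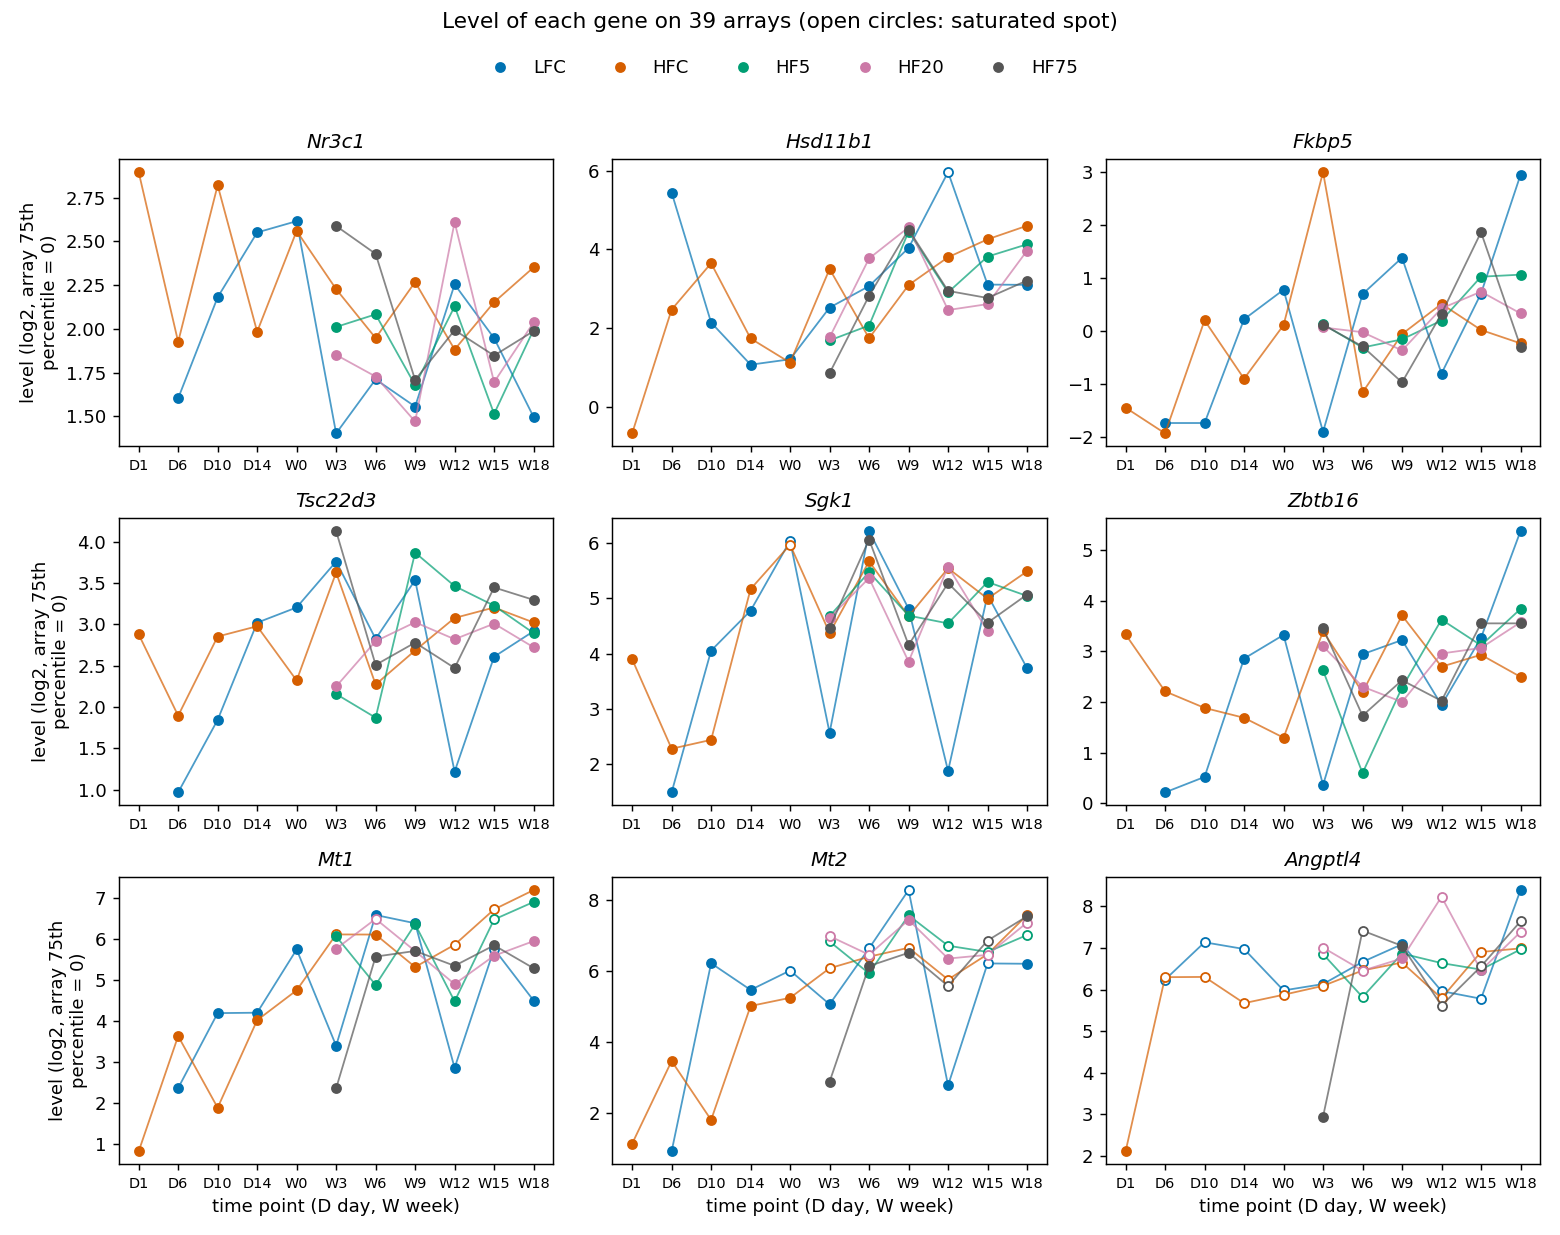
Level (log2, array 75th percentile set to 0) of each of the 9 genes at each time point, 1 point per array, coloured by diet and joined by lines within a diet, with open circles where the spot was saturated. Mt1 and Mt2 lie low on HFC Day 1 (0.83 and 1.14) and HF75 Week 3 (2.37 and 2.88), while Nr3c1 stays between 1.40 and 2.90 on all 39 arrays.

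By its brightest probe the receptor gene Nr3c1 was the steadiest of the 9. Its SD over 39 arrays was 0.39, and only 6.06% of 19177 genes had a lower one, against a median SD of 0.77. Its level ran from 1.40 to 2.62 (median 1.83) in LFC, 1.88 to 2.90 (median 2.23) in HFC, 1.51 to 2.13 (median 2.0) in HF5, 1.47 to 2.61 (median 1.79) in HF20 and 1.71 to 2.59 (median 1.99) in HF75. The groups overlapped throughout. HFC was above LFC at 7 of 10 shared time points and at 5 of the 6 from Week 3 on, with Week 12 the exception at 1.88 against 2.25. In bulk tissue fewer cells of a type and less RNA per cell cannot be told apart, here and for every gene below. The other 3 probes for Nr3c1 followed the main one with r of 0.66, 0.51 and 0.22 over 39 arrays. Their SDs were 0.60, 0.88 and 0.35, so the steadiness differs by probe.

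Hsd11b1, the enzyme that regenerates active hormone, varied widely (SD 1.35, with 86.6% of genes lower). At Day 14 and Week 0 it was low in both diets, at 1.08 and 1.21 in LFC and at 1.74 and 1.13 in HFC. At Week 3 it was 2.52 in LFC, 3.50 in HFC, 1.69 in HF5, 1.77 in HF20 and 0.86 in HF75. At Week 9 it stood at 4.04 in LFC, 3.10 in HFC, 4.45 in HF5, 4.56 in HF20 and 4.51 in HF75. LFC and all 3 KAL-1 groups were thus higher at Week 9 than at Week 3, and the HFC array was lower. Its extremes lay on arrays low in immediate early genes, with -0.67 on HFC Day 1, 5.44 on LFC Day 6 and 5.96 on LFC Week 12, where the spot was saturated.

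Fkbp5, whose product feeds back on the receptor, had its highest and some of its lowest levels in the same groups at different weeks. At Week 3 the level was -1.91 in LFC and 3.00 in HFC, with HF5, HF20 and HF75 between them at 0.12, 0.06 and 0.11. At Week 18 the order was turned, with 2.95 in LFC and -0.24 in HFC, and 1.06, 0.33 and -0.30 in HF5, HF20 and HF75. Over all their arrays the 3 KAL-1 groups lay between -0.98 and 1.86. The 2 other Fkbp5 probes did not show peaks of this size: at Week 3 they read -3.37 and -3.46 in LFC and -1.70 and -3.17 in HFC, and at Week 18 they read -1.93 and -2.22 in LFC and -2.44 and -2.74 in HFC. Over 39 arrays they followed the main probe with r of 0.28 and 0.42, so the Fkbp5 values differ by probe.

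Zbtb16, the transcription factor gene, shared with Fkbp5 the turn of order between Week 3 and Week 18. It was 0.36 in LFC and 3.40 in HFC at Week 3, and 5.38 in LFC and 2.50 in HFC at Week 18. Low LFC levels were also read at Day 6 (0.22) and Day 10 (0.52), where HFC stood at 2.21 and 1.88, whereas at Week 0 LFC was the higher at 3.33 against 1.30. Over all arrays it ran from 0.22 to 5.38 in LFC (median 2.90) and from 1.30 to 3.71 in HFC (median 2.50), and HF5, HF20 and HF75 had medians of 2.87, 3.01 and 2.94.

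Tsc22d3, the gene for GILZ, had an SD of 0.67 by its brightest probe, with 38.7% of genes lower. Its group medians lay between 2.81 in HF20 and 3.06 in HF5. At Week 3, where Fkbp5 and Zbtb16 differed most between LFC and HFC, it was 3.76 in LFC and 3.63 in HFC. Its lowest levels were LFC Day 6 (0.97), LFC Week 12 (1.22) and LFC Day 10 (1.84), of which the first 2 are among the arrays low in immediate early genes. A second Tsc22d3 probe, with an SD of 0.90, followed the brightest one with r = 0.73 but read 2.51 in LFC and 0.56 in HFC at Week 3.

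Sgk1, the kinase with the receptor site in one promoter, was above its group's median at Week 0 and Week 6 in every group measured. It read 6.04 in LFC and 5.97 in HFC at Week 0, both from saturated spots, and at Week 6 it read 6.22 in LFC, 5.67 in HFC, 5.47 in HF5, 5.37 in HF20 and 6.06 in HF75. Its lowest levels were 1.49 on LFC Day 6, 1.88 on LFC Week 12, 2.28 on HFC Day 6, 2.44 on HFC Day 10 and 2.57 on LFC Week 3, and the first 4 of these are among the 6 arrays low in immediate early genes. The medians were 4.41 in LFC, 4.99 in HFC, 4.86 in HF5, 4.65 in HF20 (5 arrays, as the Week 18 spot was flagged as an outlier) and 4.81 in HF75.

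The metallothioneins had the largest SDs of the 9 genes, with 1.49 for Mt1 and 1.76 for Mt2, and 90.0 and 93.8% of genes lower. Mt1 in HFC read 0.83 at Day 1, 3.64 at Day 6, 1.89 at Day 10, 4.02 at Day 14 and 4.75 at Week 0, and from Week 3 on it read 6.11, 6.11, 5.32, 5.86, 6.72 and 7.19. The arrays of Day 1, Day 6 and Day 10 are among those low in immediate early genes, and 3 of the 6 later spots were saturated. LFC was less regular, with 2.37, 4.20, 4.21 and 5.74 from Day 6 to Week 0 and then 3.40, 6.58, 6.38, 2.86, 5.76 and 4.50. Mt1 had medians of 6.21 in HF5, 5.73 in HF20 and 5.46 in HF75, and the HF75 array of Week 3 was far below the rest of its group at 2.37.

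Mt2, the neighbouring metallothionein gene, had its lowest levels on the arrays low in immediate early genes. On those 6 arrays it lay at 0.92 to 3.47, and the other 33 arrays ran from 5.01 to 8.27. For Mt1 the corresponding ranges were 0.83 to 3.64 and 3.40 to 7.19. The ranges of Sgk1 (1.49 to 4.47 and 2.57 to 6.22), Nr3c1 (1.60 to 2.90 and 1.40 to 2.62) and Hsd11b1 (-0.67 to 5.96 and 1.08 to 4.60) overlapped more widely. The part of muscle tissue in these values was not tested, and the muscle mean was above 0 on all 6 arrays and on 11 of the other 33. On HF5 Week 12, one of these 33, it was 6.18, with Mt2 at 6.71.

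**Figure D2:**
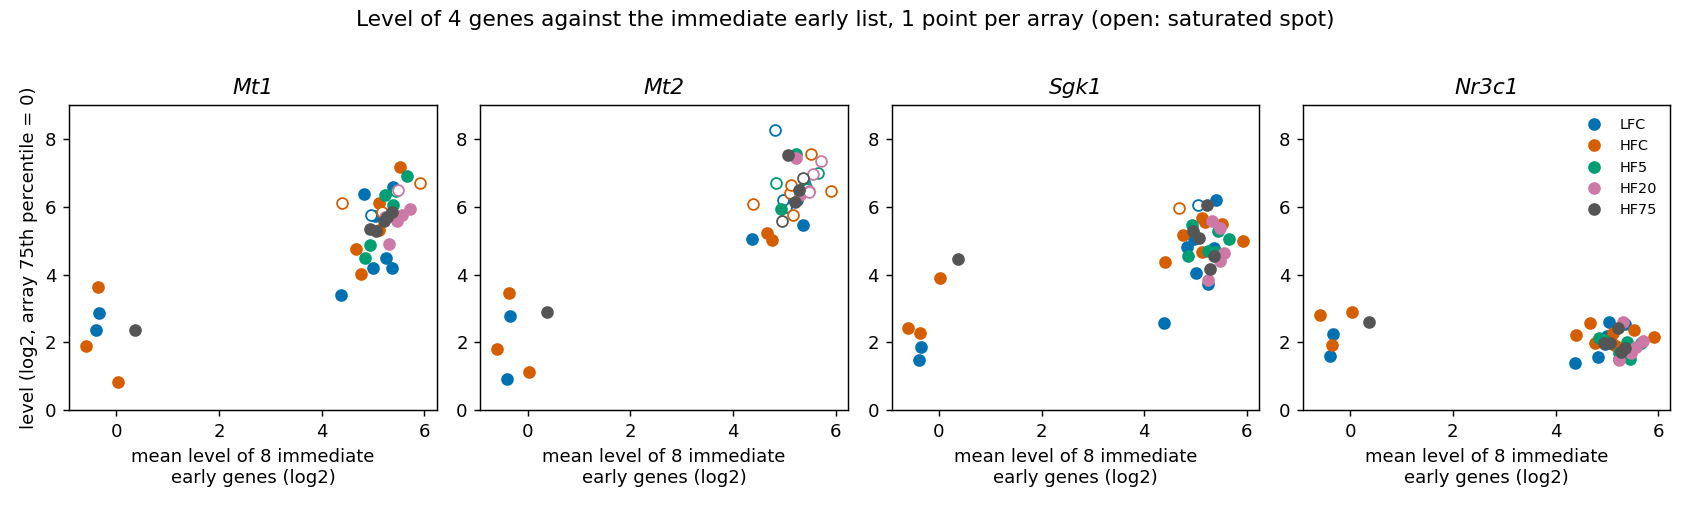
Level (log2) of Mt1, Mt2, Sgk1 and Nr3c1 against the mean level of 8 immediate early genes, 1 point per array, coloured by diet, with open circles for saturated spots. The 6 arrays at the left, between -0.60 and 0.37, carry the 6 lowest Mt2 levels, and the other 33 lie between 4.38 and 5.91.

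Angptl4, the lipase inhibitor, was so bright that its spot was saturated on 29 of 39 arrays, as was Mt2 on 20, Mt1 on 6, Sgk1 on 2 and Hsd11b1 on 1. On its saturated arrays the Angptl4 level followed the log2 75th percentile of the array with r = -0.98 across 29 arrays, and Mt2 did so with r = -0.99 across 20 and Mt1 with r = -0.97 across 6. The raw signal of those Angptl4 spots stayed between 54754 and 90754 scanner units, so a difference between 2 saturated arrays mostly gives their brightness and is no measure of RNA. Angptl4 medians lay between 6.30 in HFC and 6.88 in HF20, and the 2 lowest arrays, neither near the rest, were HFC Day 1 at 2.11 and HF75 Week 3 at 2.94. Those 2 arrays also had adipocyte marker means of 1.69 and 2.72 and muscle means of 6.22 and 7.59, and both are among the 6 arrays low in immediate early genes. The HFC array of Week 15 had a lower adipocyte mean (1.09) with Angptl4 at 6.90, and the HF5 array of Week 12 had a muscle mean of 6.18 with Angptl4 at 6.64. The part of these lists in the low Angptl4 levels was not tested.

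**Figure D3:**
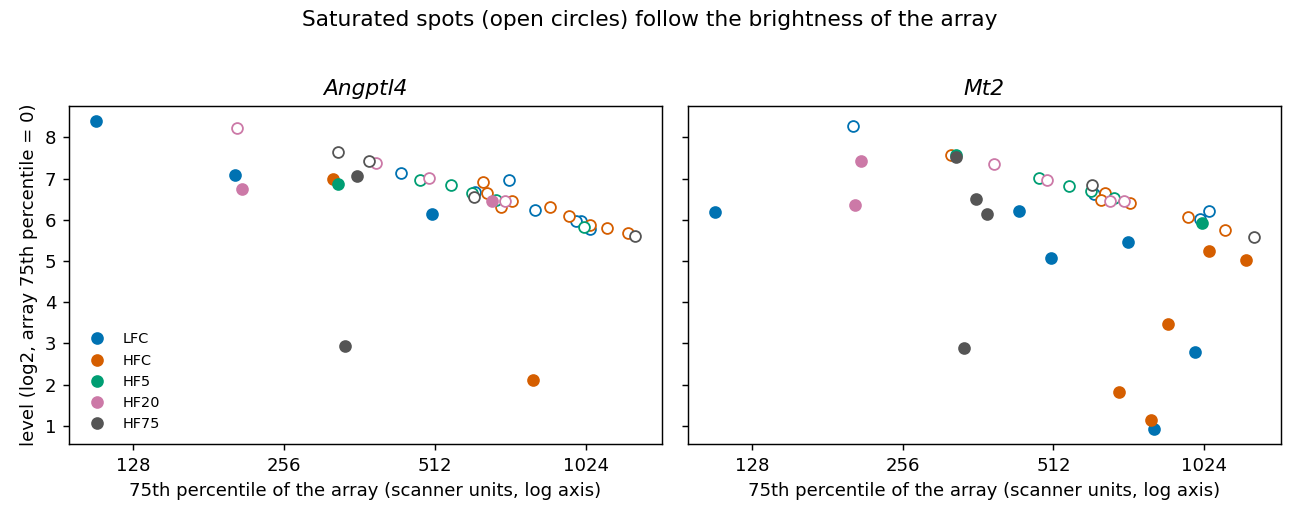
Level (log2) of Angptl4 and Mt2 against the 75th percentile of the array in scanner units (log axis), 1 point per array, with open circles for saturated spots. The open circles fall along a downward line, with r of -0.98 for Angptl4 and -0.99 for Mt2.

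The first comparison asks what the high-fat diet did to these genes over the 10 time points with both diets (20 arrays, limma with the time point as a block). None of the 9 genes passed an adjusted p of 0.05, with adjusted p values of 0.815 to 0.990, and 0% of 19864 genes passed. At an unadjusted p under 0.05 the counts were 0 of 9 and 5.86% of all genes. The largest difference was 0.60 ± 0.43 (SE, n = 10 pairs) higher in HFC for Sgk1, followed by 0.56 ± 0.52 for Mt1 and 0.28 ± 0.18 for Nr3c1. Without Week 12 Sgk1 was 0.26 ± 0.33 and Mt1 0.29 ± 0.51, and with array quality weights they were 0.08 and -0.24. They were 0.45 and 0.52 without the 6 arrays low in immediate early genes, and the count at an unadjusted p was again 0 of 9. Angptl4 read -0.33 ± 0.24, but its spot was saturated on 7 of 10 LFC and 9 of 10 HFC arrays, so that value is no measure of RNA. The 95% interval was -0.12 to 0.68 for Nr3c1, -0.34 to 1.53 for Sgk1 and -1.50 to 1.31 for Fkbp5, and a doubling in either direction lay within the intervals of Fkbp5, Zbtb16 and Mt2, upward in those of Sgk1 and Mt1 and downward in that of Hsd11b1. The median over the 9 genes was 0.07 against -0.04 over all genes tested. Whether the diet difference itself differed between Week 3 to Week 18 and the earlier time points was tested as an interaction in limma: 0 of 9 genes passed an adjusted p (0% of all), and 0 of 9 an unadjusted one (1.89% of all). Mt1 had the highest value, 1.85 ± 0.96 (adjusted p = 1), which was 1.55 ± 1.12 without the 6 arrays.

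From Week 3 to Week 18, where all 5 diets share one fit of 30 arrays, Mt1 and Sgk1 had the largest differences between HFC and LFC. Mt1 was 1.30 ± 0.53 higher in HFC, at 4 of 6 weeks (limma, p = 0.0231, adjusted p = 0.850), and Sgk1 was 1.08 ± 0.45 higher, at 3 of 6 weeks (limma, p = 0.0250, adjusted p = 0.850). The Mt1 spot was saturated on 3 of 6 HFC and 1 of 6 LFC arrays, so the difference may be understated. Neither gene passed the adjusted threshold, which 0% of 21084 genes passed, and the unadjusted count of 2 of 9 stands beside 5.06% of all genes. Both values rest in part on Week 12, without which Mt1 was 0.96 ± 0.57 higher (limma, p = 0.110) and Sgk1 0.56 ± 0.38 (limma, p = 0.155), and with array quality weights they were 0.48 and 0.16. Without the 6 arrays low in immediate early genes Mt1 was 1.03 ± 0.47 higher (limma, p = 0.0422, adjusted p = 0.378) and Sgk1 0.58 ± 0.37 (limma, p = 0.126). Nr3c1 was 0.41 ± 0.20 higher in HFC (limma, p = 0.0556, adjusted p = 0.850), with an interval of -0.01 to 0.83. The median over the 9 genes was 0.17 against -0.06 over all genes.

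The KAL-1 doses were each compared with the same 6 HFC arrays, so the 3 comparisons share their controls. None of the 9 genes passed an adjusted p in any of them, and neither did any other gene: 0% at HF5, 0% at HF20 and 0% at HF75. At an unadjusted p, 0 of 9 passed at HF5 (1.36% of all genes), 0 at HF20 (4.22%) and 1 at HF75 (5.02%), which was Mt1. Mt1 was -0.36 at HF5, -0.48 at HF20 and -1.20 ± 0.53 at HF75 (limma, p = 0.0354, adjusted p = 0.866), where it was below HFC at 5 of 6 weeks. The Mt1 spot was saturated on 3 of the HFC arrays, 1 HF5, 1 HF20 and 0 HF75 arrays, so these values may be off in size. The HF75 value leans on the Week 3 array, where the difference was -3.74, and without the 6 arrays low in immediate early genes it was -0.75 ± 0.47 (limma, p = 0.130). Among the other genes Hsd11b1 read -0.32 ± 0.52, -0.31 ± 0.52 and -0.65 ± 0.52 at HF5, HF20 and HF75. All 3 of these values lean on Week 3, where the differences were -1.81, -1.74 and -2.64. Mt2 read 0.27, 0.35 and -0.57, Angptl4 0.12, 0.57 and -0.28, and Sgk1 -0.17, -0.34 and -0.19. The HF75 values of Mt2 and Angptl4 lean on Week 3, where the differences were -3.19 and -3.15, and Angptl4 turns positive without that week. Angptl4 at HF20 leans on Week 12, where the difference was 2.44. Fkbp5, Zbtb16, Nr3c1 and Tsc22d3 lay between -0.24 and 0.12. The Mt2 and Angptl4 values in part give array brightness, as Mt2 was saturated on 6 of 6 HFC and 4 of 6 HF5 arrays and Angptl4 on 5 of 6 HFC and 4 of 6 HF20 arrays. With normexp background correction 8080 genes passed at HF20 (limma), where the median of all genes moved from 0.05 to 0.36, while Nr3c1 was -0.71 ± 0.27 (limma, adjusted p = 0.0387, against -0.24 ± 0.20 and 0.997 before), Mt1 -1.12 (limma, adjusted p = 0.106) and Angptl4 -0.03. The medians over the 9 genes were -0.17, -0.21 and -0.22 against 0.002, 0.05 and 0.002 over all genes.

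**Figure D4:**
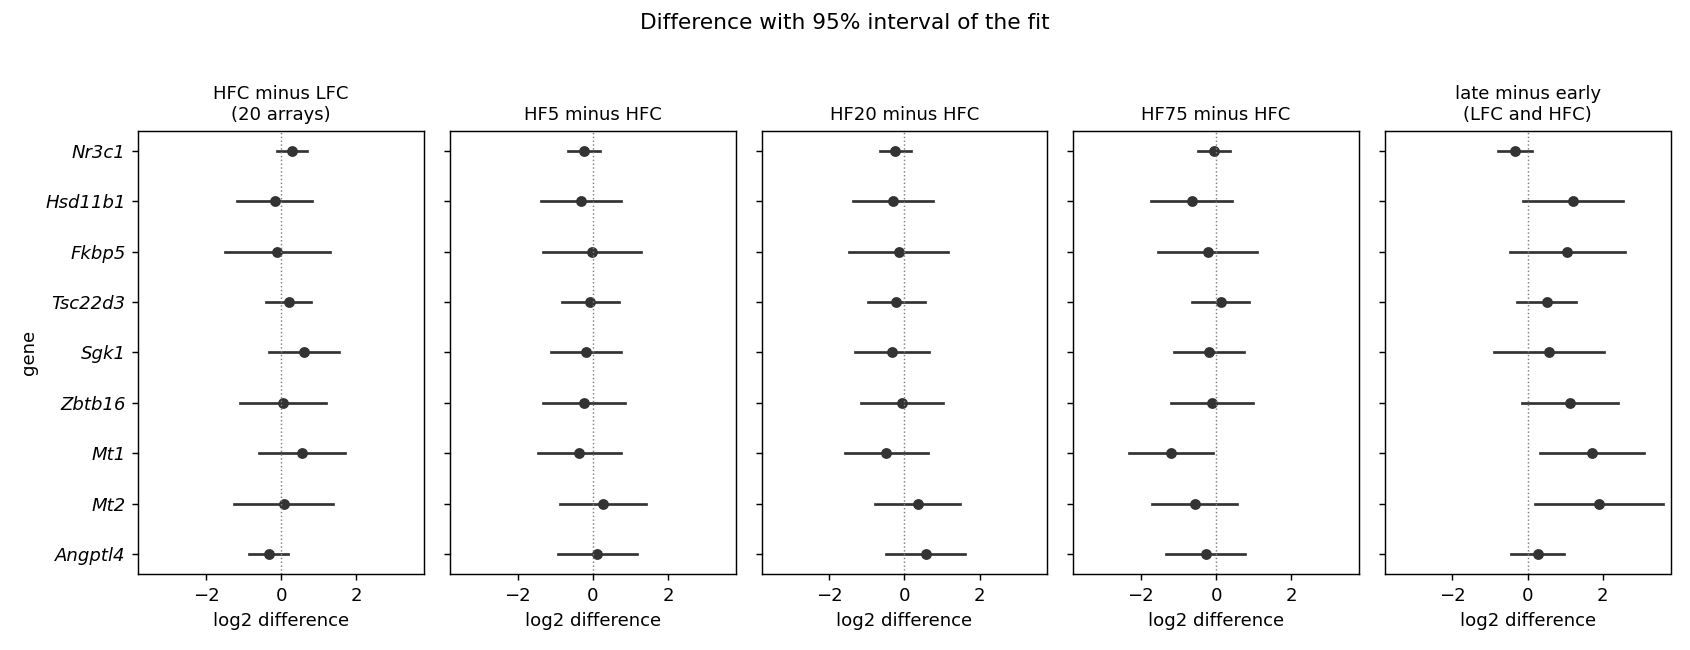
Fitted log2 difference of each of the 9 genes with its 95% interval for HFC minus LFC over 20 arrays, for each KAL-1 dose minus HFC over Week 3 to Week 18, and for late minus early time points. The interval of Mt1 lies below 0 for HF75 (-2.30 to -0.09) and above 0 for late minus early (0.34 to 3.08), and none of the 9 genes passed the adjusted threshold.

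Late and early times of collection were compared next. No scan day was shared between the early and the late arrays of LFC and HFC, and the late mice were also older. Scan, age and length of feeding thus cannot be told apart in this comparison. Between Week 3 to Week 18 and the time points from Day 6 to Week 0, Mt1 was 1.71 ± 0.66 higher late (limma, p = 0.0169, adjusted p = 0.477) and Mt2 1.90 ± 0.82 (limma, p = 0.0303, adjusted p = 0.537), with the time point as a random block. Hsd11b1 (1.21 ± 0.64), Zbtb16 (1.13 ± 0.61) and Fkbp5 (1.05 ± 0.73) were also higher late, and Nr3c1 alone was lower (-0.35 ± 0.22). In all 8 of 9 genes were higher, with a median of 1.05 against -0.01 over all genes, and 0 of 9 passed an adjusted p (0.00503% of 19865 genes, or 1 gene), while 2 of 9 passed an unadjusted one (8.51%). In the same fit the muscle markers had a median of -2.65, with 3 of 9 lower at an unadjusted p under 0.05 and Acta1 at -2.27 ± 0.80, and the immediate early genes one of 1.77, and their part was not tested. Mt2 was saturated on 3 of 6 LFC and 6 of 6 HFC arrays from Week 3 on, so its late level may be understated. The fit holds 3 early arrays and 1 late array that were low in immediate early genes, and the values change without them. Mt1 was then 1.16 ± 0.60 higher (limma, p = 0.0712), Mt2 0.87 ± 0.47 (limma, p = 0.0807), Sgk1 -0.39, and Hsd11b1 1.82 ± 0.46 (limma, p = 0.00102, adjusted p = 0.727). Nr3c1 was then -0.52 (limma, p = 0.0434), and the medians of the muscle and immediate early lists were -0.73 and 0.17. Hsd11b1 and Nr3c1 thus had larger differences without those arrays, and Mt1, Mt2 and Sgk1 did not.

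A moderated F test in limma asked whether levels differed between time points by more than between the diets at a time point. Over the 10 time points of LFC and HFC, 0 of 9 genes passed an adjusted p (0.0554% of 19864 genes, 11 genes) and 1 an unadjusted one (24.6%), Sgk1 with F = 3.60 (limma, p = 0.0215, adjusted p = 0.155). Over the 6 weeks with 5 diets, 12% of 21084 genes passed (2531 genes) and 0 of the 9, and the 2 with an unadjusted p under 0.05 (34.9% of all) were Hsd11b1 (F = 3.65, limma, adjusted p = 0.0754) and Mt2 (F = 3.27, limma, adjusted p = 0.0947). Mt2 was saturated on 3 LFC, 6 HFC, 4 HF5, 4 HF20 and 2 HF75 of these arrays, so its F value in part gives their brightness. Without Week 12 Hsd11b1 (F = 5.64, limma, adjusted p = 0.0334) and Sgk1 (F = 5.19, limma, adjusted p = 0.0415) passed over the weeks, and so did Sgk1 over the LFC and HFC time points, with F = 7.13 (limma, adjusted p = 0.0369), but the counts over all genes were then 3577 of 21179 and 2372 of 19967. These counts rest on single time points, as 35 of 21101 genes passed over the weeks without Week 6, and 0 passed over the time points without Day 6, without Day 10, without Week 0 or without Week 15. Without the 6 arrays low in immediate early genes 1 of 9 passed over the weeks, Sgk1 with F = 4.30 (limma, adjusted p = 0.0463), beside 19.2% of all genes. Arrays of a week mostly shared a scan day, so collection and scan cannot be told apart here. The change per week from Week 3 to Week 18 was highest for Hsd11b1, at 0.095 ± 0.046 a week (limma, p = 0.0467, adjusted p = 0.807), and for Zbtb16, at 0.091 ± 0.044 (limma, p = 0.0495, adjusted p = 0.807). Here 0 of 9 passed an adjusted p (0.00474% of all, 1 gene) and 2 of 9 an unadjusted one (5.53%), or 1 of 9 without the 6 arrays.

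Day 14 and Week 0 give a repeat of the same feeding time. In LFC, Nr3c1 and Hsd11b1 repeated closely, with Week 0 higher by 0.06 and 0.14, while Mt1 was higher by 1.54. Sgk1 was higher by 1.26 in LFC and by 0.80 in HFC, with the Week 0 spot saturated in both, so these values may understate the difference. Angptl4 is left out, as its spots were saturated at both times. In HFC the largest change was 1.01 for Fkbp5, with 0.73 for Mt1. Over 19177 genes the median size of this change was 0.41 in LFC and 0.44 in HFC, and between 69.3 and 94.7% of genes changed less than Sgk1 and Mt1.

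The 9 genes did not move as one. Over the 33 arrays not low in immediate early genes, the closest pair was Fkbp5 and Zbtb16 (r = 0.75), and the relation was nearly as close after each late week's mean was removed (r = 0.71 over 28 arrays). Fkbp5 enters by its brightest probe, which its 2 other probes followed with r of only 0.28 and 0.42 over 39 arrays. Mt1 and Mt2 gave 0.63 and 0.54 by these 2 measures. Sgk1 and Mt1 gave 0.41 over 33 arrays but 0.76 within weeks, and Hsd11b1 and Mt2 gave 0.59 but -0.02 within weeks. Nr3c1 followed Sgk1 (0.52 and 0.53) and ran against Hsd11b1 over 33 arrays (-0.45) but hardly within weeks (-0.08). These are descriptions over arrays that share time points, scan days and tissue makeup, and the saturated spots of Mt1 and Mt2 enter them. Values for Sgk1 rest on 1 array fewer throughout, as its HF20 spot of Week 18 was left out.

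**Figure D5:**
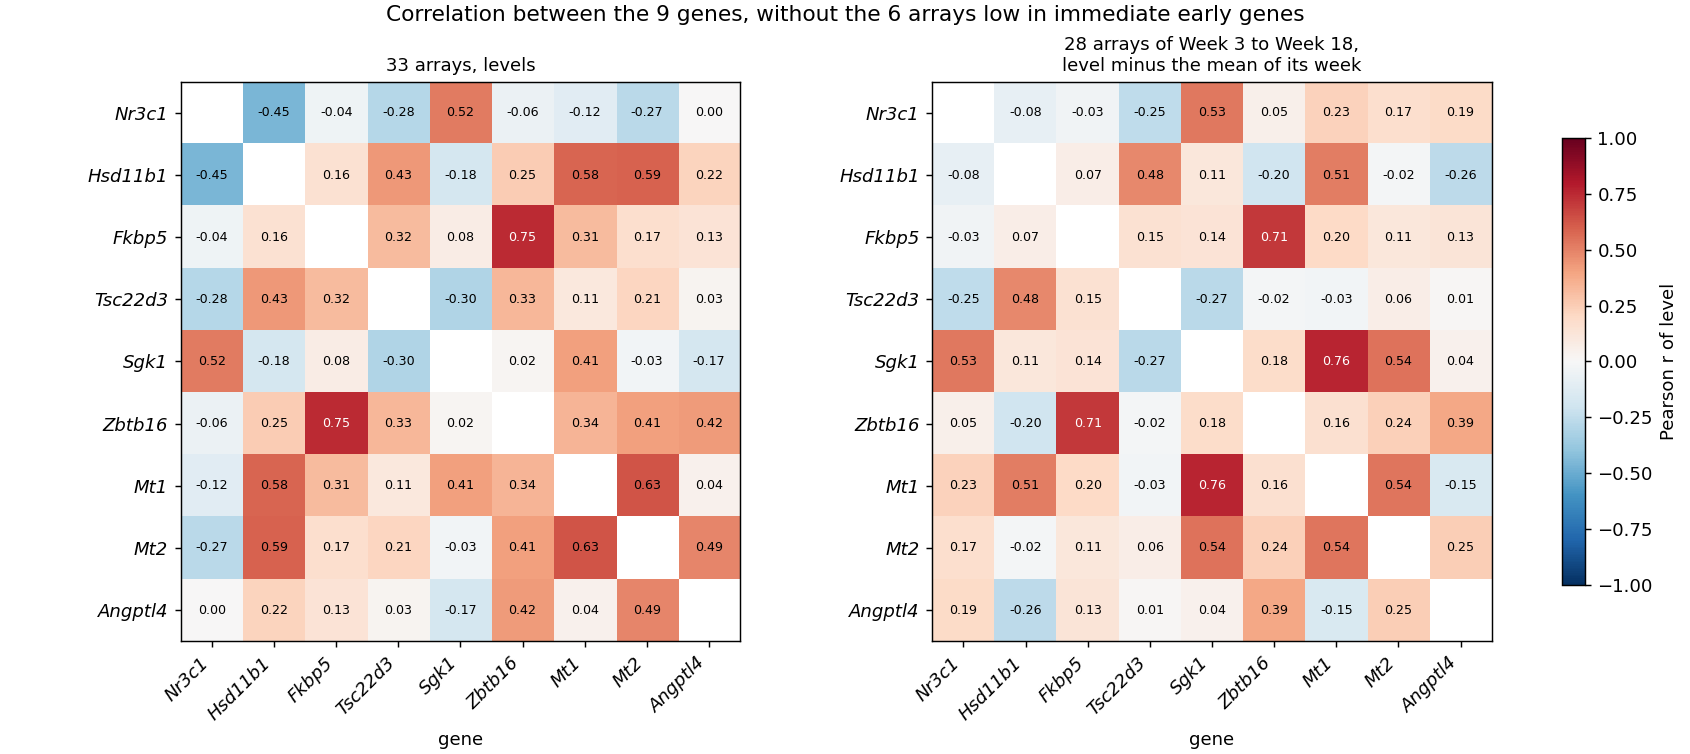
Pearson r of the level between each pair of the 9 genes, on the left over 33 arrays and on the right over the 28 of these from Week 3 to Week 18 after the mean of each week was subtracted, with 1 array fewer for Sgk1. Fkbp5 with Zbtb16 is the highest pair on the left (0.75), and Sgk1 with Mt1 is the highest on the right (0.76).

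Each gene was also set beside the 3 genes of 19177 whose level followed it most closely over 39 arrays, with r over the 33 arrays given second. Mt2 was most like Junb (0.94, 0.65), Socs3 (0.93, 0.62) and Nfkbia (0.91, 0.59), and Mt1 most like Ccl7 (0.91, 0.81), Phlda1 (0.91, 0.74) and Ccl2 (0.90, 0.73). Junb is an immediate early gene, Socs3 and Nfkbia are feedback inhibitors of cytokine signalling, and Ccl7 and Ccl2 are chemokines that draw monocytes. Sgk1 was most like Spry1 (0.92, 0.85), Lrrc8c (0.86, 0.78) and Ipmk (0.86, 0.68). Hsd11b1 was most like Ttc39c (0.84, 0.86), Akr1b8 (0.83, 0.79) and Pgcp (0.82, 0.78). Angptl4 was most like H2-T23 (0.93, 0.79), H2-D1 (0.93, 0.77) and H2-Q7 (0.90, 0.69), class I histocompatibility genes. Fkbp5 was most like an unnamed transcript XM_001480287 (0.75, 0.67), Gm4679 (0.73, 0.74) and Zbtb16 (0.70, 0.75), and Zbtb16 most like Mat2a (0.73, 0.75), Lonrf1 (0.72, 0.67) and Riok2 (0.70, 0.66). For Nr3c1 these were Zfp715 (0.75, 0.75), Gcc2 (0.75, 0.67) and Rnf160 (0.75, 0.70), and for Tsc22d3 they were Stag2 (0.64, 0.38), Smox (0.63, 0.26) and Med7 (0.62, 0.56). Without the 6 arrays the likeness of Smox to Tsc22d3 fell most of these, and that of Med7 little. Angptl4 was saturated on 29 arrays and Mt2 on 20, where their levels followed the brightness of the array, and the part of brightness in their likenesses was not tested.

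The wider pathway was read from lists of genes around the 9. Of 25 other glucocorticoid targets tested over the 10 time points of HFC and LFC, 0 passed an adjusted p, and 2 passed an unadjusted one, both higher in HFC, against 5.86% of all genes, with a median of 0.24 against -0.04 over all genes. The smallest p belonged to Agt, which encodes angiotensinogen, at 1.39 ± 0.33 higher in HFC (limma, p = 0.00111, adjusted p = 0.803). H6pd, which supplies the cofactor for Hsd11b1, was 1.01 ± 0.32 higher (limma, p = 0.00812, adjusted p = 0.803) and led 6 genes of steroid supply and inactivation. Nrip1, a corepressor, led 11 receptor coregulators at 0.61 ± 0.26, and Hspa8 led 9 receptor chaperones at -0.22 ± 0.20, of which 1 and 0 had an unadjusted p under 0.05.

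Agt and H6pd were also among the leading genes where KAL-1 was added. Agt was -0.68 ± 0.38 at HF5, -1.46 ± 0.38 at HF20 (limma, p = 0.000780, adjusted p = 0.997) and -0.73 ± 0.38 at HF75 (limma, p = 0.0653), and Anxa1, an anti-inflammatory hormone target, led at HF75 with -1.34 ± 0.38 (limma, p = 0.00191, adjusted p = 0.866). H6pd was -1.08 ± 0.37 at HF20 and -0.80 ± 0.37 at HF75. As these comparisons share the HFC arrays with the one against LFC, a high HFC array enters both with opposite sign. Of 26 targets, 0, 2 and 3 had an unadjusted p under 0.05 at HF5, HF20 and HF75, all lower, against 1.36, 4.22 and 5.02% of all genes. Their medians were -0.08, -0.07 and -0.37, against 0.002, 0.05 and 0.002 over all genes. The counts were 0, 3 and 3 without the 6 arrays low in immediate early genes, with a median of -0.14 at HF75, and exchanging the 2 doubtful Week 12 arrays gave 1 at HF5 and 1 at HF20. The 9 muscle markers had medians of 2.52, 2.12 and 3.15 at HF5, HF20 and HF75, with 3, 2 and 5 of 9 at an unadjusted p under 0.05, all higher, and Myh4 at 3.54, 3.24 and 4.41. Of 7 macrophage markers 0, 0 and 3 passed that p, the last led by Itgax at -2.10 ± 0.67. The 7 lymphocyte markers had medians of 0.86, 1.48 and 0.25, with 1 passing that p, Cd79a at HF20 (2.14 ± 0.81). The 9 adipocyte markers had medians of -0.39, -0.55 and -0.35, with 1 passing it, Lep at HF20 (-2.01 ± 0.87). The muscle counts without the 6 arrays were 6, 5 and 1 of 9, with a median of 1.53 at HF75, and 0, 1 and 1 macrophage markers passed. Exchanging the 2 doubtful arrays gave muscle counts of 0 at HF5 (median 1.11) and 6 at HF20 (median 3.08). Their part in the differences was not tested.

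At Week 3 to Week 18, 6 of 26 glucocorticoid targets had an unadjusted p under 0.05 between HFC and LFC, against 5.06% of all genes, all higher in HFC and led by the phosphatase gene Dusp1 at 1.38 ± 0.42 (limma, p = 0.00323, adjusted p = 0.850), with a median of 0.40. Circadian clock genes, which glucocorticoids help to set, did likewise in 6 of 11, led by Per3 at 1.19 ± 0.36 (limma, p = 0.00300, adjusted p = 0.850), with a median of 0.78. The 8 immediate early genes had a median of 1.19 in the same comparison, led by Jun at 1.21 ± 0.44, and LFC Week 12 is among the arrays where that list was low. Metal handling genes were led by the zinc importer Slc39a1 at 0.54 ± 0.20, with 2 of 12 at an unadjusted p under 0.05, and targets of the fatty acid receptor by Lpl at 0.93 ± 0.34, with 1 of 13. No gene of these lists passed an adjusted p. At an unadjusted p the counts without the 6 arrays were again 6 of 26 targets (median 0.24), 4 of 11 clock genes (median 0.53), 3 of 12 metal handling genes and 3 of 13 fatty acid receptor targets, and the immediate early median was 0.31. In the same comparison the muscle markers had a median of -1.88 (0 of 9 at an unadjusted p under 0.05) and the lymphocyte markers one of -1.63 (1 of 7, Cd79b at -1.96 ± 0.92), and their part was not tested.

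Over the 6 weeks with all diets, genes of these lists did pass the F test, where 12% of all genes did, a count that fell from 2531 to 35 genes without Week 6 and to 646 with normexp. These were 3 of 26 glucocorticoid targets, Agt (F = 6.99, limma, adjusted p = 0.0158), Pck1 (adjusted p = 0.0475, limma) and Cebpd (adjusted p = 0.0494, limma), and 1 of 9 chaperones, Ptges3 (F = 5.77, limma, adjusted p = 0.0253). Metal handling gave 3 of 12, with the zinc exporter Slc30a1 (F = 7.50, limma, adjusted p = 0.0140), Slc39a10 and Hmox1. Fatty acid receptor targets gave 3 of 13 (Cidec, Lpl and Cpt1a) and the clock 2 of 11 (Per3 and Clock). None of 11 coregulators, 7 steroid supply genes or 8 immediate early genes passed. In the same test 3 of 3 red blood cell markers passed, Alas2 (F = 14.0, limma, adjusted p = 0.00435), Hba-a1 and Hbb-b1, as did 2 of 7 macrophage markers, Cd14 (limma, adjusted p = 0.0183) and Cd68. So did 2 of 9 muscle markers, Tnnc2 (limma, adjusted p = 0.0286) and Myh4, and 1 of 9 adipocyte markers, Cidec, and their part in the other values was not tested. With the 6 arrays low in immediate early genes left out, 19.2% of all genes passed, with 5 of 26 glucocorticoid targets, 3 of 9 chaperones, 5 of 13 fatty acid receptor targets, 4 of 11 clock genes and 4 of 9 muscle markers.

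Set beside the members over 33 arrays, the mean of the other glucocorticoid targets followed Mt1 (r = 0.77), Hsd11b1 (0.60), Mt2 (0.59), Zbtb16 (0.56) and Fkbp5 (0.50), and not Nr3c1 (-0.12). The mean of metal handling genes followed Sgk1 (0.63) more than Mt1 (0.26) or Mt2 (-0.13). Macrophage markers followed Mt1 (0.46) and Hsd11b1 (0.42), and endothelial markers followed Sgk1 (0.52) and Nr3c1 (0.49) and ran against Hsd11b1 (-0.63) and Tsc22d3 (-0.56). Other lists had values of like size. Among them lymphocyte markers ran against Sgk1 (-0.52) and Nr3c1 (-0.49), and immediate early genes followed Mt1 (0.57). Clock genes followed Sgk1 (0.54), and red blood cell markers followed Angptl4 (0.54), whose spot was mostly saturated. These values describe which genes kept company across samples of differing tissue makeup, and the part of that makeup, or of the saturated Mt1 and Mt2 spots, was not tested.

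Markers of other cell types bear on the same comparisons. Between HFC and LFC over 10 time points, 4 of 7 macrophage markers had an unadjusted p under 0.05, all higher in HFC and led by Cd68 at 1.05 ± 0.35, as had 2 of 9 adipocyte markers, Cfd at -0.61 ± 0.18 and Lep at 1.93 ± 0.79, and 2 of 3 red blood cell markers, both lower. The macrophage count was 1 and the red blood cell count 3 without the 6 arrays low in immediate early genes. None of 9 muscle, 6 lymphocyte, 6 mammary and simple epithelium, 5 endothelial or 1 skin marker did. Over all arrays the macrophage mean ran from -2.27 to 2.42, the lymphocyte mean from -4.99 to 1.78, the endothelial mean from 0.26 to 3.78, the mammary and simple epithelium mean from -6.91 to -2.01, the skin mean from -7.63 to -4.89 and the red blood cell mean from 1.63 to 7.08.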

How the data were processed

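Total RNA of subcutaneous adipose tissue was measured on 39 Agilent 1-colour arrays (36 slides, 14 scan days). Per the file headers, the deposited intensity values came from Feature Extraction 10.5.1.1 (version 9.1 in the submitters' processing notes), with the background subtracted and trends corrected within each array and no normalization between arrays. The deposited flags of 0 or 1 mark spots that are well above background, saturated or outliers. The deposited series table holds log2 ratios that the authors made with GeneSpring GX, each against the LFC array of that time point. For HFC Day 1, where no LFC array was analysed here, the reference is not given in the sources used here. Week 9 intensities were rounded to whole numbers in the deposited files. The array annotation is on build mm9 and the promoters are on GRCm38.p6, so coordinates are given only for the promoters.

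Processed intensities were put on the log2 scale, the 75th percentile of each array was subtracted, outlier spots were left out (4936 on the HF20 array of Week 15) and replicate spots were averaged. A gene is given by its probe with the highest mean. Genes well above background on at least 10 arrays (fits of LFC and HFC) or 6 arrays (fits of 5 diets), with at most 2 missing, were tested with limma 3.58.1 (R 4.3.3). Time point was a fixed block for diets and a random block (statmod 1.5.0) for late against early and change per week. Tests are two-sided, with Benjamini-Hochberg adjustment over all genes and a threshold of 0.05. The fits were tested on simulated data. Array number limits the precision.

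Named were the 9 genes, the genes of each list past an adjusted p of 0.05 or otherwise the one with the smallest p, and the 3 genes most like each of the 9 among genes well above background on at least 20 arrays. The 9 genes and the lists were chosen with earlier results of these data known. Adipoq and Fos were named after their values were seen. Nr4a1, Lep in HFC against LFC and Agt at HF75 were also named outside this rule. Alternatives changed the background correction, the scaling, the filter, the probe, outlier spots, array weights, blocks, moderation and the time points used, and 3 were chosen after seeing the data: exchanging the Week 12 arrays of HF5 and HF20, leaving out the HF20 array of Week 15, and leaving out the 6 arrays low in immediate early genes.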

Additional observations from a re-analysis of the deposited data

Results flagged for a closer look

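In 2 of 36 groups of arrays tested, 1 array of a diet group lay farther from the others than Dixon's test at the 5% level allows, which chance alone gives in about 1 of 20 groups. Groups of more than 10 arrays were not tested, so the 11 HFC arrays were left out. There Angptl4 was 2.11 at Day 1 and at least 5.67 on the other HFC arrays. The Mt1 level of the HF75 array of Week 3 was 2.37, and the nearest of the other 5 HF75 arrays was at 5.29. That array had the highest skeletal muscle mean of all arrays (7.59), is among the 6 low in immediate early genes and enters the HF75 difference of Mt1. The Angptl4 level of the LFC array of Week 18 was 8.39, and the nearest of the other 9 LFC arrays was at 7.14. Its spot was not saturated, and the array had the lowest 75th percentile of all, 108 scanner units, while saturated Angptl4 spots on brighter arrays were limited to lower levels.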

How the results depend on the processing

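Alternatives were counted for 37 values of the 9 genes. These were all 9 genes in HFC against LFC and in late against early. Elsewhere they were genes with an unadjusted p under 0.05, the highest or lowest value, or an adjusted p under 0.05 in some alternative. The other values, among them many of the dose differences, were not counted. Of the 737 alternative values counted, 676 kept direction and side of the threshold, 56 turned direction, all in values that had not passed it, and 5 passed it newly. The lowest adjusted p among these in a diet comparison was 0.0387 (limma), for Nr3c1 at HF20 with normexp (-0.71). Normexp gave HFC against LFC 0.020 for Fkbp5 and, at Week 3 to Week 18, 0.077 for Angptl4, with -0.032 for Angptl4 at HF20 and -0.14 for Tsc22d3 at HF75. Quantile normalization gave Angptl4 0.22 (HFC against LFC), 0.42 (Week 3 to Week 18), -0.0010 (HF20) and -0.13 (late against early), Tsc22d3 -0.010 at HF75, and a change per week of 0.00027 for Nr3c1. Array weights gave HFC against LFC -0.24 for Tsc22d3, -0.73 for Zbtb16, -0.24 for Mt1 and -0.35 for Mt2, with Angptl4 at 0.11 (Week 3 to Week 18), Tsc22d3 at -0.22 (HF75) and Nr3c1 at 0.0014 a week. Scan day as a block gave 0.43 for Hsd11b1, -0.094 for Tsc22d3, -0.29 for Zbtb16 and -0.61 for Mt2 between HFC and LFC. Without the 6 arrays low in immediate early genes these 4 were 0.28, -0.25, -0.52 and -0.062, the Fkbp5 interaction was 0.44, Tsc22d3 at HF75 -0.082, Sgk1 late against early -0.39 and Nr3c1 0.0028 a week. The mean of all probes gave a Fkbp5 interaction of 0.070 and Tsc22d3 -0.073 at HF75, and slide as a random block gave Angptl4 0.26 at Week 3 to Week 18 and Tsc22d3 -0.13 at HF75. The cause was not tested for any of these.

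Leaving out 1 time point at a time gave HFC against LFC from -0.66 (without Week 3) to 0.24 (without Week 18) for Fkbp5, -0.28 (without Week 3) to 0.37 (without Week 18) for Zbtb16, -0.35 (without Day 10) to 0.14 (without Day 6) for Hsd11b1 and -0.26 (without Week 12) to 0.56 (without Day 10) for Mt2. Angptl4 at Week 3 to Week 18 ran from -0.45 to 0.053, the Fkbp5 interaction from -1.16 to 0.50, Sgk1 late against early from -0.16 to 1.22 and Nr3c1 a week from -0.0059 to 0.0028. Mt1 at HF75 was -0.69 without Week 3. Without Week 12, Sgk1 over time points (F = 7.13, limma, adjusted p = 0.0369) and Hsd11b1 and Sgk1 over weeks (F = 5.64 and 5.19, limma, adjusted p = 0.0334 and 0.0415) passed, as did Sgk1 over weeks without the 6 arrays (F = 4.30, limma, adjusted p = 0.0463).

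Counts over all genes were within 1.5 times in 145 of 194 alternatives. Normexp moved the median of all genes to -0.14 (HFC against LFC), -0.22 (Week 3 to Week 18), 0.36 (HF20) and 0.21 (HF75), and quantile normalization moved it to -0.09 at HF20. Normexp gave 8080 genes at HF20 against 0, 1 over time points, 646 over weeks and 0 for late against early and for the change per week. Quantile normalization gave 26 over time points. Array weights gave 19 late against early and 0 for the change per week. Without the 6 arrays the counts were 0 over time points, 4089 over weeks and 0 for the change per week. No filter gave 0 over time points, 1537 over weeks and 0 late, a filter on every array 3, 0 late and 0 for the change per week, the mean of probes 0 late, scan day as a random block 0 for the change per week, and independent arrays 44 late and 20 for the change per week. With 1 time point left out the counts ran from 0 to 2372 over time points, 35 to 3577 over weeks, 0 to 5 late and 0 to 3 for the change per week, with 2372 and 3577 without Week 12 and 35 without Week 6. Slide as a random block could not be fitted for the 20 arrays of LFC and HFC and was not run there. The diet comparisons are paired by time point through the block. Replicate numbers only follow the order of deposition and gave no other pairing. Saturation limits Angptl4 and Mt2, and 1 array for each diet and time point limits every comparison.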
